A study of Homo sapiens with 4 samples.

Results

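Peaks in the last exon of protein-coding transcripts were described in a YTHDF2 RNA immunoprecipitation experiment in HCCLM3 cells. A peak belonged to this set when it lay on chromosomes 1 to 22 or X, when its deposited annotation was an exon of a transcript with a coding RefSeq number, and when that exon was the last of the transcript. Of the 14858 peaks in the list, 92 (0.619%) met this rule, and they lay in 88 genes. They made up 3.44% of the 2672 exon peaks of coding transcripts on these chromosomes. Internal exons held 2578 of the others and first exons of several-exon transcripts held 2. The rule used the annotation and position of a peak and none of its measured values.

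The labels give 4 libraries of HCCLM3, a metastatic human hepatocellular carcinoma line grown without a stated treatment. The name of the deposited peak list carries WT, for wild-type, while the sample titles state no genotype. In RNA immunoprecipitation sequencing, an antibody pulls down a protein with its bound RNA, and that RNA is sequenced beside the input it came from. There were 2 YTHDF2 immunoprecipitations (RIP) and 2 inputs, and no pulldown with a control antibody. Without one, enrichment does not separate RNA bound by YTHDF2 from RNA that any antibody would bring down. The authors deposited 1 peak list with no value per library, so neither a spread between replicates nor a depth per library could be given. Nothing in the labels says that replicates came from separate cultures. All results below are therefore counts and medians over peaks of 1 list, without a test of any difference, since peaks are not replicates.

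YTHDF2 is a cytosolic reader of N6-methyladenosine (m6A), a methyl mark that the METTL3-METTL14 complex writes on mRNA. It recruits the CCR4-NOT deadenylase and thereby shortens the life of marked transcripts. In mammalian mRNAs m6A is known to be densest around the stop codon, in long internal exons and in the 3' UTR. The last exon usually holds the end of the reading frame, the stop codon and the 3' UTR. In many C2H2 zinc finger genes it holds the whole array of zinc fingers in 1 long exon.

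Each peak carried 1 annotation, and a peak given to a 3' UTR was not a member even where it lay in the last exon. Which class took priority where a peak touched both is a choice not given in the sources used here. Because the rule itself places members toward the 3' end, the distances that follow describe the set and test nothing. They were taken to the end of the transcript that the list names as nearest, where it belonged to the exon's gene, and otherwise to the end of the RefSeq gene. The summit lay a median of 2870 bp from the 3' end of the gene in the 81 members with a known strand and a summit inside the gene span (quartiles 1720 and 4660 bp). It was within 5000 bp of that end in 64 of them (79.0%) and in the 3' part of the span, past its midpoint, in 80 (98.8%). For 2451 internal coding exon peaks placed in the same way, the median distance was 22000 bp, and 12.2% lay within 5000 bp. The exception was ZNF451, whose peak was annotated to the last exon of a 4-exon transcript and lay 68700 bp from the end of the nearest transcript in the list. The ZMYM5 summit lay outside the span of the nearest transcript in the list, and 10 members had no strand in the tables used. The gene number that the list gives as nearest was that of the exon's gene for only 43 of the 92 members, so genes are given here by the exon annotation.

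**Figure D1:**
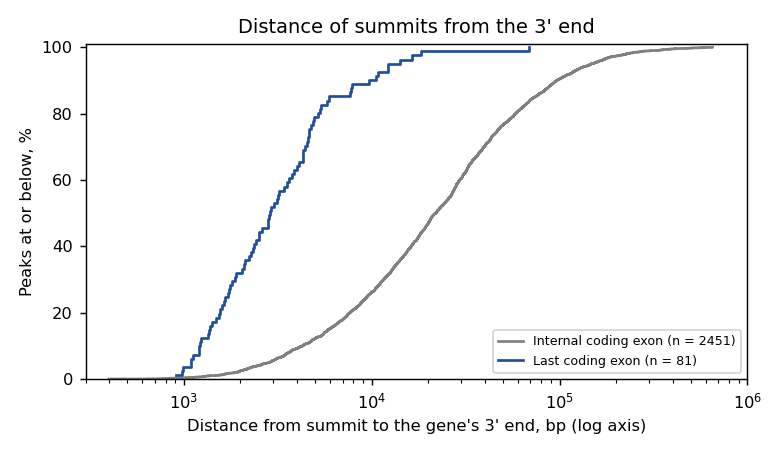
Cumulative share of peaks (vertical axis, percent) against the distance in bp from the summit to the 3' end of the gene (log axis), for last coding exon peaks (blue, n = 81) and internal coding exon peaks (grey, n = 2451). The median was 2870 bp for last coding exon peaks and 22000 bp for internal ones.

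Last coding exon peaks had low folds over many fragments. The authors give for each summit a fold enrichment, which is RIP signal over the background of the peak caller. The count of RIP fragments behind it was worked back from that fold and its p-value. The median fold of the 92 members was 1.67 (quartiles 1.52 and 2.14, range 1.22 to 4.26), against 2.49 for internal coding exon peaks, 2.12 for 3' UTR peaks and 2.41 for the whole list. A fold of 2 or more was reached by 29 members (31.5%), against 69.8% of internal coding exon, 56.0% of 3' UTR and 70.0% of all peaks. The median number of fragments was 52.5 in members (quartiles 17 and 114), against 22 in internal coding exon, 44 in 3' UTR and 12 in all peaks. The caller's background at the summit had a median of 30.3 fragments in members, 7.28 in internal coding exon and 19.7 in 3' UTR peaks. How far it follows the input at the site was not tested, and 4 members on different chromosomes shared the value 0.533. Few members rested on 4 or fewer fragments, 5 of 92 (5.43%), against 21.3% of internal coding exon peaks.

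By the caller's q, 37 of the 92 members (40.2%, 95% Clopper-Pearson interval 30.1 to 51.0, counting error only) passed 0.01, beside 37.3% of all peaks. The share was thus close to that of the whole list. It was 47.4% for internal coding exon and 51.1% for 3' UTR peaks. Depth was not matched here, as 34.2% of all peaks rested on 4 or fewer fragments, against 5.43% of members. Shares at like fragment numbers are given below. At a q of 0.05, 49 members (53.3%, interval 42.6 to 63.7) passed, against 44.7% of all, 58.1% of internal coding exon and 59.7% of 3' UTR peaks. A −log10 q of 5 or more was reached by 9 members (9.78%, interval 4.57 to 17.8), against 20.8% of all, 23.8% of internal coding exon and 27.6% of 3' UTR peaks. The member intervals held the share of the whole list at the q limits of 0.01 and 0.05 and lay below it at the strict limit. The passing members lay in 36 genes. The members next to the limit were BHLHE40 with a −log10 q of 2.15, which passed, and ZNF146 with 1.99, which did not. For 23 members the −log10 q was 0. Members that passed had a median of 109 fragments and the others a median of 27, while the median fold was 1.67 in both.

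The fold a peak needs to enter the list falls with its number of fragments, so folds were set side by side at like fragment numbers. At 5 to 19 fragments the median fold was 2.33 in 21 members, 3.59 in 702 internal coding exon peaks and 2.59 in 805 3' UTR peaks. Of these, 9.52% of members, 48.7% of internal coding exon peaks and 22.4% of 3' UTR peaks passed a q of 0.01. At 20 to 59 fragments the medians were 1.68 in 25 members, 2.08 in internal coding exon peaks and 2.08 in 3' UTR peaks. They were 1.59, 1.86 and 1.85 at 60 to 119 fragments, with 19 members, and 1.51, 1.94 and 1.83 at 120 or more, with 22 members. The shares that passed, in the same order, were 32.0%, 53.0% and 50.2% at 20 to 59 fragments. They were 63.2%, 69.6% and 67.9% at 60 to 119, and 68.2%, 86.0% and 88.5% at 120 or more. No peak of these classes passed at 2 to 4 fragments. The member median fold was the lowest of the classes in each range, also at 2 to 4 fragments, where it rested on 5 members (2.38, against 2.61 in both other classes). The median background was higher in members than in both other classes from 5 fragments upward, with 99.3 against 79.5 in internal coding exon peaks at 120 or more. At 2 to 4 fragments it was lower, 0.533 against 0.68 in internal coding exon and 0.642 in 3' UTR peaks. The background was worked back from the fold and fragments, so at a given fragment number it is higher wherever the fold is lower. It is therefore not an observation separate from the folds. Among members, fold and fragments had a Spearman correlation of -0.63 over 92 peaks, which share the libraries and the caller's limit.

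**Figure D2:**
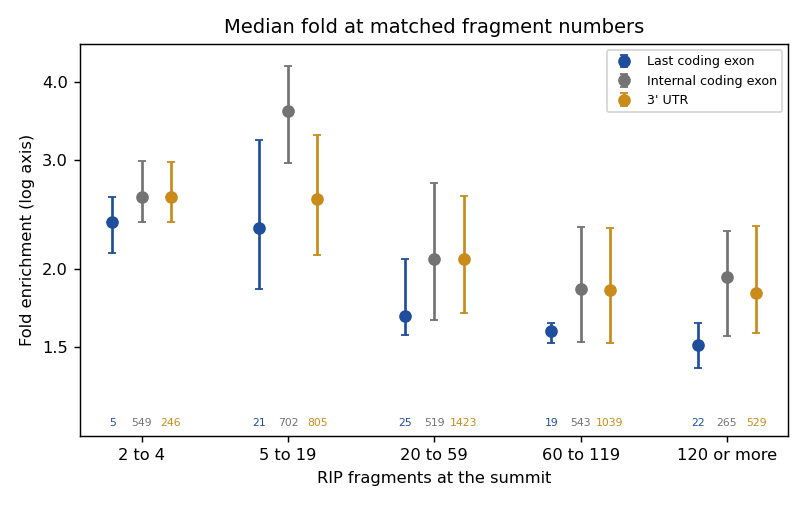
Median fold enrichment (points, log axis) with the lower and upper quartiles (bars) in 5 ranges of RIP fragments at the summit, for last coding exon peaks (blue), internal coding exon peaks (grey) and 3' UTR peaks (orange), with the number of peaks at the foot. The blue median is the lowest in each range, for example 1.51 against 1.94 and 1.83 at 120 or more fragments.

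**Figure D3:**
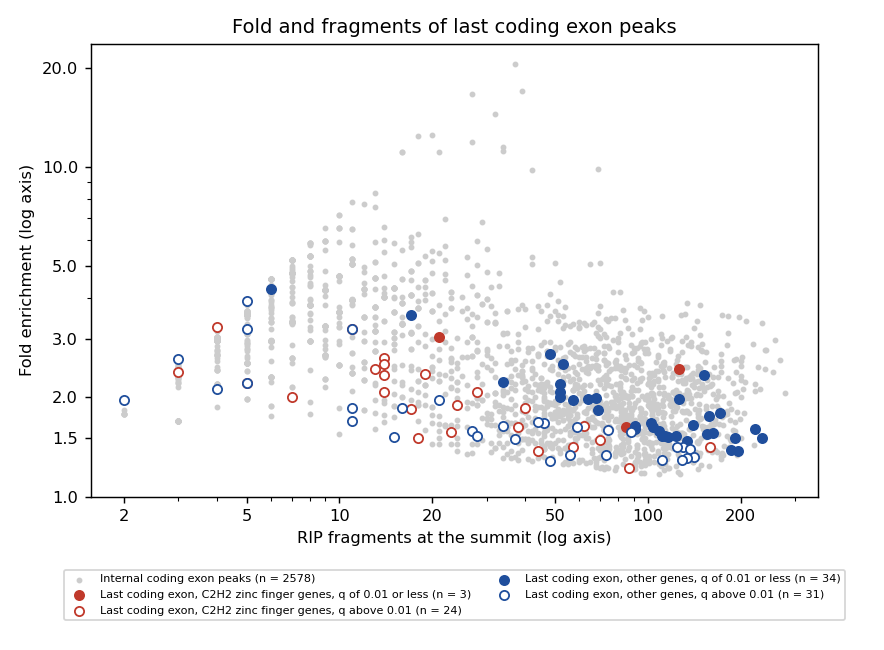
Fold enrichment (log axis) against RIP fragments at the summit (log axis) for each last coding exon peak, with C2H2 zinc finger genes in red and other genes in blue, filled where the q was 0.01 or less, over the 2578 internal coding exon peaks in grey. Most members lie in the lower part of the grey cloud, and most filled points are at 50 or more fragments.

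Genes of the cytoskeleton and cell adhesion gave 7 members, among them the leading one by q. AHNAK2, a very large scaffold protein, had a −log10 q of 16.3 and a fold of 2.33, from 152 fragments over a background of 64.6 (chromosome 14, 104953396 to 104953729, hg38, exon 7 of 7). Desmoplakin (DSP), which ties desmosomes to intermediate filaments, had a fold of 1.79 from 171 fragments over 95.2 (chromosome 6, 7582882 to 7583446, exon 24 of 24). Plectin (PLEC), a linker between filament systems, had the most fragments of any member, 235, over a background of 155.0, which gave a fold of 1.51 (chromosome 8, 143918923 to 143919318, exon 32 of 32). The cofilin phosphatase SSH2 had a fold of 2.0 from 52 fragments. The actin-nucleating formin FHOD3 had the highest fold of all members, 4.26, from only 6 fragments over 0.642. Dystroglycan (DAG1), a receptor for laminin, had 1.41 over 124 fragments, and PEAK1, a pseudokinase of focal adhesions, 1.69 over 11. Neither of these passed a q of 0.01, so 5 of the 7 peaks in this group did (95% interval 29.0 to 96.3%, beside 37.3% of all peaks).

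C2H2 zinc finger genes, most of which encode DNA-binding repressors, were the largest group by family name. They made up 26 of the 88 member genes (29.5%), against 34 of 1949 genes with an internal coding exon peak (1.74%). This composition was not tested, and how long the last exons of these genes are was not measured. Of the 27 zinc finger peaks, 15 lay on chromosome 19, which held 17 of all 92 members (18.5%) and 4.23% of internal coding exon peaks. Their transcripts had a median of 4 exons, against 7 in the other members. Only 3 of the 27 passed a q of 0.01 (11.1%, 95% Clopper-Pearson interval 2.35 to 29.2), beside 37.3% of all peaks. Of the 65 other members 34 passed (52.3%, 39.5 to 64.9). The median fold of the zinc finger members was 2.0 and their median number of fragments 21, against 1.64 and 69 in the other members. Of 36 internal coding exon peaks in C2H2 genes, 14 passed (38.9%, 23.1 to 56.5), with a median of 42 fragments. At like fragment numbers, it varied whether the zinc finger members or the other last exon members had the higher median fold. At 5 to 19 fragments 0 of 11 zinc finger members and 2 of 10 others passed, with median folds of 2.33 and 2.72. At 20 to 59 fragments 1 of 8 and 7 of 17 passed, with medians of 1.73 and 1.68. For 60 to 119 it was 1 of 4 and 11 of 15 (1.56 and 1.59), and for 120 or more 1 of 2 and 14 of 20 (1.92 and 1.51). None passed at 2 to 4 fragments (2.82 in 2 and 2.12 in 3). Zinc finger genes resemble each other in the repeated finger sequence, and the part of reads shared between them was not tested.

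The zinc finger peaks that passed were those of ZNF275, ZNF799 and ZBTB43. ZNF275 ranked next to AHNAK2 among all members, with a −log10 q of 14.7 and a fold of 2.44 from 126 fragments over 51.0 (chromosome X, 153347033 to 153347392, exon 4 of 4). ZNF799 had 3.05-fold from 21 fragments over 6.21 (chromosome 19, 12391150 to 12391929, exon 4 of 4). ZBTB43, which joins a BTB domain to its fingers, had 1.63-fold from 85 fragments over 51.7. Those that did not pass had 3 to 159 fragments. ZNF146 (159 fragments, 1.41-fold), ZNF263 (87, 1.22-fold, the lowest fold of all members), ZNF91 (70, 1.48-fold), ZNF451 (62, 1.64-fold), ZNF567 (57, 1.41-fold), ZNF292 (44, 1.37-fold), ZNF616 (40, 1.85-fold) and ZNF318 (38, 1.62-fold) were those with the most fragments. ZNF585B had the highest zinc finger fold, 3.26, from 4 fragments over 0.533. ZNF114 had 3.23-fold over 11 fragments, ZNF214 2.63-fold and ZNF431 2.53-fold over 14 each, and ZNF595 2.43-fold over 13. The remaining ones, ZNF254, ZNF264, ZNF341, ZNF430, ZNF441, ZNF527, ZNF674, ZNF775, ZNF850 and ZNF891, had 3 to 28 fragments and folds of 1.51 to 2.38.

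Genes of chromatin and transcription outside the C2H2 list gave 22 members, of which 13 passed a q of 0.01 (interval 36.4 to 79.3%, against 37.3% of all peaks), with a median fold of 1.57 and a median of 106 fragments. This group and those of the following paragraphs, as well as the cytoskeletal group above, were drawn up after the members were seen. The Polycomb protein CBX6 had 1.67-fold from 102 fragments. MORF4L2, a subunit of histone acetyltransferase complexes, had 1.5-fold from 192 fragments and LRRFIP1, a nucleic acid-binding repressor, 1.56-fold from 162. MED1, the Mediator subunit that contacts nuclear receptors, had 1.99-fold from 68, and the Myb-related repressor MYPOP 2.20-fold from 52, the highest fold of the passing peaks in this group. The BAF remodeller subunit ARID1A had 1.62-fold from 104 fragments, the acetyltransferase and CREB coactivator EP300 1.58-fold from 109, and KMT2E 1.53-fold from 123. The ETS repressor ERF had 1.52-fold from 116, ADNP 1.53-fold from 111, and BHLHE40, a repressor of the molecular clock, 1.38-fold from 186. The lysine acetyltransferase KAT6A had 2 peaks 1067 bp apart, of which 1 passed with 1.97-fold from 64 fragments and the other did not with 1.31-fold from 134. Both peaks of ADNP2, 1840 bp apart, missed the limit at 1.57-fold from 88 fragments and 1.34-fold from 73. POGZ (1.59-fold), RLF (1.58), ZBED5 (1.68), THAP5 (1.39), the beta-catenin cofactor BCL9L (1.29, from 129 fragments) and ZMYM5 (3.23, from 11 fragments) did not pass either.

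Of 6 peaks in genes of RNA processing and m6A writing, 5 passed a q of 0.01 (interval 35.9 to 99.6%, beside 37.3% of all peaks). The passing folds were 1.37 to 1.98. CBLL1, also called HAKAI, is a subunit of the complex that writes m6A. It had 1.75-fold from 158 fragments over 89.7 and a −log10 q of 7.28 (chromosome 7, 107758372 to 107758850, exon 6 of 6), and no other peak of the list lay in its gene. SCAF4, which binds RNA polymerase II and limits early polyadenylation, had 1.98-fold from 126 fragments over 63.2 (chromosome 21, 31671502 to 31671864, exon 19 of 19). The SR-related protein PNISR had 1.96-fold from 57, the nuclear cyclophilin PPIG 1.55-fold from 155 and the splicing factor SRSF4 1.37-fold from 196 over a background of 143. RBM12B had 1.62-fold from 59 fragments over 36.0 and did not pass.

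Enzymes and adaptors of ubiquitin and SUMO gave 8 peaks, 4 of which passed (interval 15.7 to 84.3%, beside 37.3% of all peaks). RNF139, a ubiquitin ligase of the endoplasmic reticulum, had 2.08-fold from 52 fragments (chromosome 8, 124486142 to 124486480, exon 2 of 2). The ubiquitin protease USP31 had 1.83-fold from 69, USP1, which acts on FANCD2 and PCNA, 1.64-fold from 91, and SOCS6, an adaptor of cullin ligases, 1.60-fold from 91. The ligase RLIM had many fragments, 141, but a fold of 1.32, and FEM1C had 1.34-fold from 56. KLHL15 (1.96-fold from 21 fragments) and the SUMO protease USPL1 (1.86-fold from 11) were shallow, and none of these 4 passed.

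A further 5 peaks lay in NPIPB5, NPIPB12, NPIPB13 and AGAP4, genes of segmental duplications with near-identical copies, so the gene of their reads is uncertain. Their median fold was the highest of the groups, 2.70, and their median number of fragments the lowest, 17. The groups were not matched for fragments. NPIPB5 had 2 peaks 1144 bp apart on chromosome 16, with 2.52-fold from 53 fragments and 2.70-fold from 48, and both passed. NPIPB12 passed with 3.55-fold from 17 fragments, while NPIPB13 (3.91-fold from 5) and AGAP4 (2.21-fold from 5) did not. Thus 3 of the 5 peaks passed (interval 14.7 to 94.7%, beside 37.3% of all peaks).

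Among the remaining 17 genes, 4 peaks passed (23.5%, interval 6.81 to 49.9%, beside 37.3% of all peaks). PDZD8, a lipid transfer protein of the endoplasmic reticulum, had 1.65-fold from 140 fragments over 84.3 and a −log10 q of 4.88 (chromosome 10, 117284765 to 117285198, exon 5 of 5). CCPG1, a receptor for autophagy of the endoplasmic reticulum, had 1.53-fold from 114, and C11orf24 1.47-fold from 134. The 1 member in a single-exon transcript lay on chromosome 1 (39413249 to 39413581) with 2.22-fold from 34 fragments. Its gene number is not in the RefSeq table, and the list names it MACF1, after the cytoskeletal linker gene there. Those that did not pass included the kinase DYRK2 (1.41-fold from 130 fragments), the LDL receptor relative LRP12 (1.29 from 111), the growth factor receptor adaptor GAREM1 (1.67 from 46), the RAB regulator TBC1D30 (1.28 from 48), the ESCRT subunit VPS37C (1.49 from 37), MANSC1 (1.64 from 34) and the mitotic helicase ERCC6L (1.53 from 28). The cancer-testis antigen MAGEA11 (3.23-fold from 5 fragments), ZMAT1 (2.12 from 4), B3GALT1 (2.61 from 3) and SCARF2 (1.96 from 2) rested on the fewest fragments of these genes. LIPT2-AS1 had 1.52-fold from 15 fragments and is listed in the RefSeq table as a long non-coding RNA, although its annotated transcript had a coding number.

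**Figure D4:**
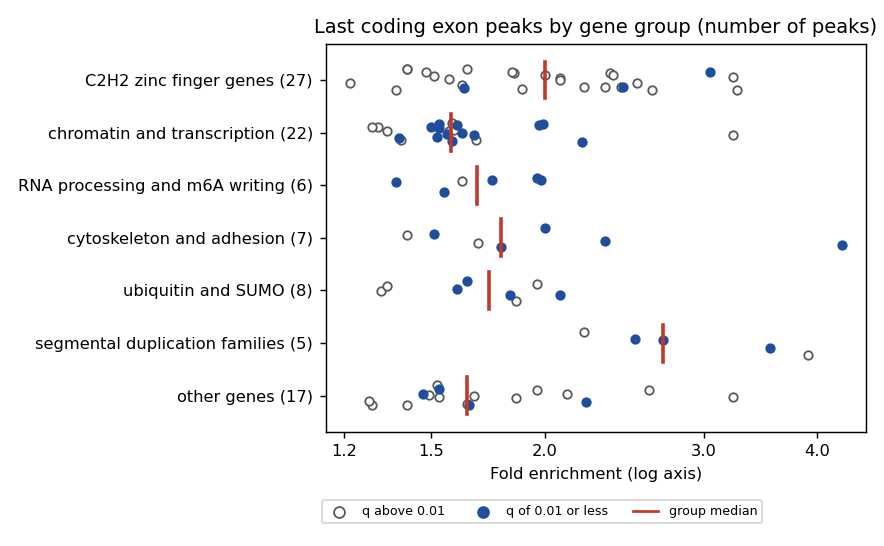
Fold enrichment (log axis) of each last coding exon peak, by gene group with the number of peaks, filled where the q was 0.01 or less, with the group median as a red line. Vertical scatter within a group carries no value. Of the zinc finger peaks 3 of 27 are filled, against 13 of 22 for chromatin and transcription and 5 of 6 for RNA processing and m6A writing. Of all peaks in the list 37.3% passed. The median fragments of these 3 groups were 21, 106 and 140, and a difference between groups was not tested. Groups other than the zinc fingers were drawn up after the members were seen.

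The widest member peak was that of ZBED5, with 1258 bp, followed by KMT2E with 1167, NPIPB12 with 1126, an ADNP2 peak with 1055 and, among others, ADNP with 904. The median width was 404 bp in members, the same as in 3' UTR peaks, and 341 bp in internal coding exon peaks. Only 10 members had the smallest width of 315 bp.

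Other peaks of the list lay in 44 of the 88 member genes. A 3' UTR peak had its summit in the span of 26 (29.5%, 95% Clopper-Pearson interval 20.3 to 40.2), an intron peak was found in 19, a promoter peak in 12, an internal coding exon peak in 9 and a 5' UTR peak in 3. The 3' UTR annotation names no gene, so a 3' UTR inside another gene in the same span cannot be told apart. For C2H2 zinc finger genes the 3' UTR share was 7 of 26 (26.9%) and for the others 19 of 62 (30.6%). In 44 genes the last exon peak, or the pair of them, stood alone, 16 of them with a member that passed.

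Where a gene had both, the 3' UTR peak mostly had the higher fold and the last exon peak more fragments. The pairs used the peak of highest −log10 q on each side. The last exon fold was lower in 20 of 26 genes, with a median log2 difference of -0.41 (last exon minus 3' UTR, range -1.56 to 0.37), and its fragments were more numerous in 23 of 26. Median folds were 1.54 and 2.42, and median fragments 108 and 52.5. The pairs were not matched for fragments, and the fold a peak needs to enter the list falls with its fragments. The summits were a median of 1680 bp apart. In the 6 genes where both peaks passed a q of 0.01 the 3' UTR fold was the higher in each. Among these, ARID1A had 3.33-fold in the 3' UTR against 1.62 in the last exon, MORF4L2 3.20 against 1.5, PLEC 2.58 against 1.51, PDZD8 2.19 against 1.65 and USP31 1.92 against 1.83. In 8 genes only the 3' UTR peak passed, among them LRP12 (3.81-fold from 65 fragments, against 1.29 from 111), ZBED5 (3.25 against 1.68), RLIM (2.40 against 1.32) and ZNF263 (2.61 against 1.22). The last exon fold was the higher in SSH2, ADNP, SRSF4, BHLHE40, DAG1 and ZNF441, and in none of these did the 3' UTR peak pass.

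**Figure D5:**
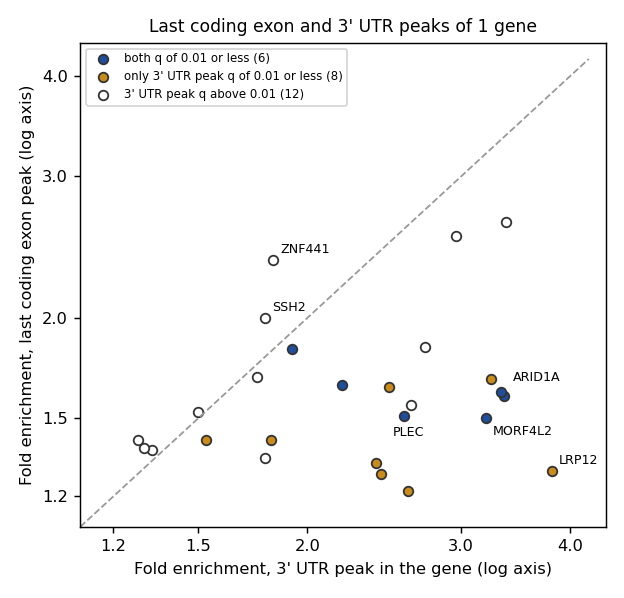
Fold enrichment of the last coding exon peak (vertical, log axis) against that of the 3' UTR peak with the highest −log10 q in the same gene (horizontal, log axis) for 26 genes; the dashed line marks equal folds and the fill shows which peak had a q of 0.01 or less. Of the genes, 20 lie below the line, among them the 6 in which both peaks passed.

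Internal coding exon peaks in the same genes were fewer. Of 9 such genes, the last exon fold was lower in 7, with a median log2 difference of -0.41. ARID1A had 2.36-fold from 144 fragments in exon 3 against 1.62 in its last exon, KMT2E 2.02-fold from 89 fragments in exon 21 against 1.53, and USP1 1.90-fold from 104 in exon 6 against 1.64. BCL9L, whose last exon peak did not pass, had 2.39-fold from 172 fragments in exon 6, and RLF 4.76-fold from 7 in exon 2. KAT6A had 1.76-fold from 82 fragments in exon 15 against 1.97, and EP300 1.56-fold from 58 in exon 15, which did not pass, against 1.58.

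Gene lists drawn from pathway knowledge were set beside the members by their counts. The lists are not complete. For example, the mitotic helicase ERCC6L, the splicing factor SRSF4 and the ligase RLIM are members but are in none of them. Each list held 5 or fewer members apart from the zinc fingers. With 37.3% of all peaks passing, a few that pass say nothing particular about a list. Of 70 chromatin regulators, 39 had an exon or intron peak anywhere, and ARID1A, EP300 and KMT2E had a last exon peak, and all 3 of these passed. Of 79 genes of cytoskeleton, adhesion and matrix, AHNAK2, DSP and PLEC were members, and all 3 passed. Of 367 ubiquitin ligases and ubiquitin proteases, KLHL15, RNF139, USP1, USP31 and USPL1 were members and 3 passed. Of 61 splicing factors and RNA-binding proteins, PNISR and SCAF4 were members and passed. Of 23 m6A writers, erasers and readers, 12 had an exon or intron peak anywhere, and CBLL1 was the member among them. Of 39 immediate-early and inducible factors BHLHE40 was a member, of 45 Wnt and Hippo genes BCL9L, of 36 genes altered in liver cancer ARID1A, and of 24 genes of CREB, CRTC, SIK and calcineurin EP300. YTHDF2 and CRTC2 themselves were not members. Several lists held no member, given here with their genes that had an exon or intron peak anywhere. These were histones by prefix (1 of 87 genes), cytosolic ribosomal proteins by prefix (7 of 90) and deadenylation, decapping and decay (21 of 50). The same held for translation factors (15 of 40) and receptor tyrosine kinase, MAPK and PI3K signalling (22 of 58). Cell cycle, mitosis and DNA repair (35 of 71) and stress response and chaperones (13 of 42) had none either. Nor did hepatocyte secreted proteins (1 of 25) or markers of non-parenchymal and blood cells (3 of 20). Members were only 0.619% of all peaks, in 88 genes, so a list of this size without a member says nothing particular about that list. A peak list gives no level for a gene without a peak.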

How the data were processed

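The submitters' processing notes name HISAT2, MACS2 and hg38, with versions, thresholds and the way libraries were combined not given in the sources used here. Each row of the deposited list holds, per the file headers, a ratio (fold enrichment), a −log10 p-value, a −log10 q-value, a score, a width, a summit offset and an annotation. The authors' score was not used. The members and gene lists were chosen with earlier results of these data known.

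From the deposited fold, taken as fragments plus 1 over background plus 1, and the Poisson p, a whole number of RIP fragments was solved for each summit, meeting each −log10 p within 0.000189. The solver was tested on data simulated with this same formula, which checks its arithmetic and not whether the deposited values follow the formula. Library depths are unknown here. A peak passed at a q of 0.01 or less. Gene names and spans came from RefSeq tables of GRCh38.p14, strand also from the list. Named genes were those leading by −log10 q, by fold, by number of peaks and by width, the single-exon member, and up to 4 passing genes per list with the highest fold, with YTHDF2 and CRTC2. The other members were added after their values were seen. Some members are counted but not reported here by name. Intervals of shares are exact Clopper-Pearson and take in counting error alone, and PCR copies without molecular identifiers do not count separate molecules. The interval of the median fold runs between ranked folds set by the binomial distribution (an order-statistic interval) and reflects the spread over peaks. Alternatives covered the q limit, fragment limits, 1 peak per gene, exon number, transcript prefix, gene assignment and gene families. Python 3.11.15 and scipy 1.17.1 were used.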

Additional observations from a re-analysis of the deposited data

How the results depend on the processing

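No paired analysis was possible because the list holds no value per library, and for the same reason no replicate could be left out. The share of members that passed was 53.3% at a q of 0.05 or less and 9.78% at a −log10 q of at least 5 (44.7% and 20.8% of all peaks), and 52.3% without the C2H2 zinc finger genes, an alternative chosen after seeing the data. The median fold of members was 1.60 with at least 20 fragments. It stayed within its order-statistic interval over peaks, 1.60 to 1.86, in the other settings. The median log2 fold of members minus that of internal coding exon peaks was -0.57; it was -0.64 among passing peaks, -0.28 with at least 20 fragments and -0.28 with at least 60, the last chosen after seeing the data. Against 3' UTR peaks it was -0.34, with -0.51 among passing peaks and -0.15 at 5 to 19 fragments, where 21 members remained. The median number of fragments was 109 among passing members. With both peaks at a q of 0.01 or less, 16.7% of 36 member genes had a 3' UTR peak as well. The causes of these differences were not tested, beyond the smaller number of peaks that each limit leaves. No median difference changed its sign in the settings run. The number of genes (87 with the deposited nearest gene) and the distance from the 3' end moved little.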
